A study of Homo sapiens with 4 samples.

Results

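The genes described here make, interconvert and clear guanine nucleotides, and include the pair that encode inosine monophosphate dehydrogenase (IMPDH), the enzyme that ribavirin monophosphate is known to inhibit. They were chosen by name (IMPDH1, IMPDH2, GMPS, GUK1, GMPR, GMPR2, HPRT1, GDA and NUDT16), each read from the transcript cluster with the highest mean where a symbol had more than 1. All 9 were found among 25847 genes. Hut78 is an established human T-cell line derived from a cutaneous lymphoma, grown in medium with fetal bovine serum. The ribavirin group was 2 arrays of Hut78 cells treated for 120 h with 50 µM ribavirin, and the control group was 2 arrays of Hut78 cells given no drug, for which no culture time is stated. Total RNA was read on the Affymetrix Human Transcriptome Array 2.0, and every level below is a log2 probe set summary, so that a difference of 1 is a doubling of the summarized signal. Whether it is also a doubling of transcript was not tested, and every fold below is on this scale. Only this line, dose and time were examined, and no label says whether the arrays of a group represent separate cultures. The p-values therefore rest on array-to-array spread alone, which may be technical.

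Guanine nucleotides are built from inosine monophosphate (IMP), the branch point of purine synthesis. IMPDH oxidises IMP to xanthosine monophosphate (XMP) in the step that limits the guanine branch, GMP synthetase turns XMP into guanosine monophosphate (GMP), and guanylate kinase adds the next phosphate. GMP reductase runs the branch backwards to IMP, and a salvage transferase rebuilds IMP and GMP from free bases. Lymphocytes depend strongly on IMPDH when they divide, and IMPDH2 is known as the isozyme raised in dividing and malignant lymphocytes, while IMPDH1 is the more constant of the pair.

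To show the sequence around the start of these genes, windows of 300 bases (250 before to 50 after the start) were taken from RefSeq (GRCh38.p14), which matched 8 of the 9 genes, IMPDH2 being the exception. The windows of the IMPDH isozyme whose groups overlapped and of the salvage gene, whose change came next in size after that of IMPDH2, are printed 5′ to 3′ with the GC box (GGGCGG on either strand) in capitals. IMPDH1 lies on the minus strand at chr7:128409933-128410232, and HPRT1 on the plus strand at chrX:134459915-134460214.
IMPDH1: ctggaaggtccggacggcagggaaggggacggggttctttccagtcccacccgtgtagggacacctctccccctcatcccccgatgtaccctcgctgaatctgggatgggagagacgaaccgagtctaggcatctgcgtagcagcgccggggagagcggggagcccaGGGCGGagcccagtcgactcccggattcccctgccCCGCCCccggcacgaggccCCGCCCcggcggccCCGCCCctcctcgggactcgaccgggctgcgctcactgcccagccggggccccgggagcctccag
HPRT1: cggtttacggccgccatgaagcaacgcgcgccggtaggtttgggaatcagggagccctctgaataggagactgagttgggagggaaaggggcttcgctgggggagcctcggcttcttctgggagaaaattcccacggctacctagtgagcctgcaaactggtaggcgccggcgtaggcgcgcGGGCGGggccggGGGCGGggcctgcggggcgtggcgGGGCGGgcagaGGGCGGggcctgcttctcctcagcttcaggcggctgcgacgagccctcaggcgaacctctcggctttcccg
Each of these windows holds 4 GC boxes. All 8 matched genes had at least 1 GC box in a window, against 48.3% of 27305 genes in the table. CCAAT, on either strand, was in a window of GMPR, GMPR2, GDA and NUDT16, or 4 of 8, against 39.7% of genes. The cAMP response element TGACGTCA was in a window of GUK1 only, against 2.25% of genes, and CACGTG in a window of 0 of 8, against 8.77%. GUK1, GMPR2 and NUDT16 have more than 1 window, and GC boxes and CCAAT may overlap neighbouring copies. The G and C content of the windows ran from 57.3% to 79.3%, against a median of 58.7% over 35116 windows. These matches describe letters only, and no binding was measured.

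At the drug's target step, the RNA signal of the isozyme genes changed unequally. Only RNA was read, so protein, enzyme activity and nucleotide levels were not tested. IMPDH2 (TC03001397.hg.1) stood at 11.17 and 11.26 in the ribavirin arrays, against 10.34 and 10.34 in the control arrays. Both ribavirin arrays lay well above both controls. The means were 11.22 ± 0.07 with ribavirin and 10.34 ± 0.0022 in control (SD, n = 2 each). IMPDH2 rose by 0.88 on the log2 scale (SE 0.07, limma adjusted p = 0.00407), which is 1.83-fold with a 95% interval of 1.61 to 2.09. It ranked 576th from the top by change, with 2.22% of all genes showing a larger rise. Of the 675 genes whose control level was within 0.5 of that of IMPDH2, 23.3% rose and 6.96% changed upward by at least as much.

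IMPDH1 (TC07001846.hg.1) stood at 7.81 and 7.87 in the ribavirin arrays, against 7.91 and 7.82 in the control arrays. The groups overlapped. Its change was -0.027 (SE 0.08, limma adjusted p = 0.845), with a 95% interval of -0.22 to 0.16, or 0.859-fold to 1.12-fold, so that a change as large as that of IMPDH2 lay outside the interval. The sign of this change turned when each array was centred on its median (0.038), and the value was -0.19 after quantile normalization, where it also did not pass (adjusted p = 0.174).

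Within each array, the log2 level of IMPDH1 minus that of IMPDH2 was -3.36 and -3.40 with ribavirin, against -2.44 and -2.52 in control. This within-array difference thus moved by -0.90 with ribavirin, so that the ratio of IMPDH1 to IMPDH2 signal was 0.535 of its control value. The groups did not overlap, but 2 arrays against 2 cannot give an exact permutation p below 0.333, and that was the two-sided p found. The probes of the isozymes differ, so the size of the difference within an array is not a ratio of transcripts, and only its shift between groups is read.

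**Figure D1:**
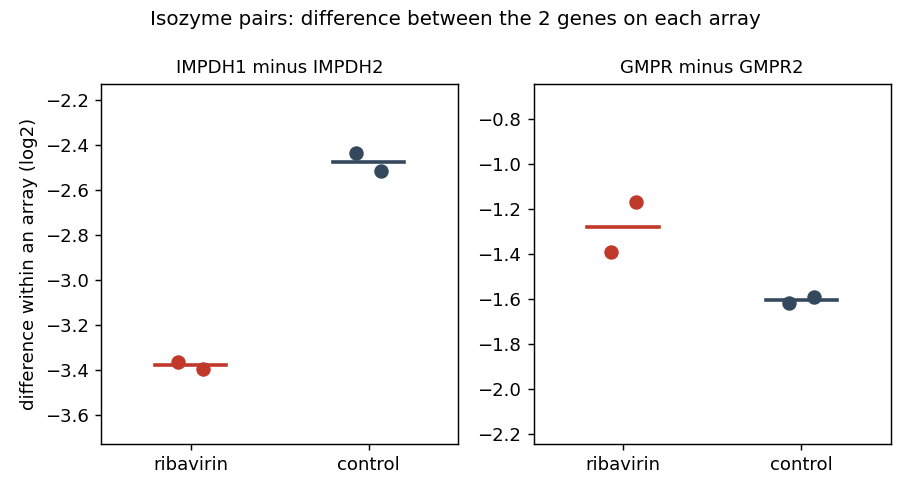
Difference between the log2 levels of the genes of each isozyme pair (y axis, log2) on the ribavirin arrays (left of each panel) and the control arrays (right), with a point for each array and a bar at the group mean. IMPDH1 minus IMPDH2 lay at -3.36 and -3.40 with ribavirin against -2.44 and -2.52 in control, and GMPR minus GMPR2 was spread more widely between the ribavirin arrays.

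Leaving out either control array ended the IMPDH2 call, as it did most calls over all genes, but hardly moved the size of the IMPDH2 change. The change was 0.88 without control replicate 1 (limma adjusted p = 0.0631) and 0.87 without control replicate 2 (adjusted p = 0.0575), where the lone control array is assumed to vary like the ribavirin arrays. It was 0.92 without ribavirin replicate 1 (adjusted p = 0.0316) and 0.83 without ribavirin replicate 2 (adjusted p = 0.0271).

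IMPDH2 was the only member that passed the threshold (limma, Benjamini-Hochberg adjusted p under 0.05 over all genes). That is 1 of 9 upward and 0 of 9 downward, while 9.34% of all genes rose and 5.88% fell, 15.2% in either direction. Among the 10505 genes that in at least 1 group were brighter than every background probe set (above the background range), 21.9% rose and 11% fell (32.8% in either direction). GMPR and GDA are not among these genes, and a gene could enter through its brighter group alone. The members' count is near the share over all genes and is not read as a result about the members. Over all genes 2413 rose and 1521 fell, against 2899 and 1034 with arrays centred on their median and 1939 and 1996 after quantile normalization. The members' median change was 0.0064, and that of all genes -0.049. The arrays of the groups did not overlap in 5 of the 9 members and in 59.9% of all genes.

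**Figure D2:**
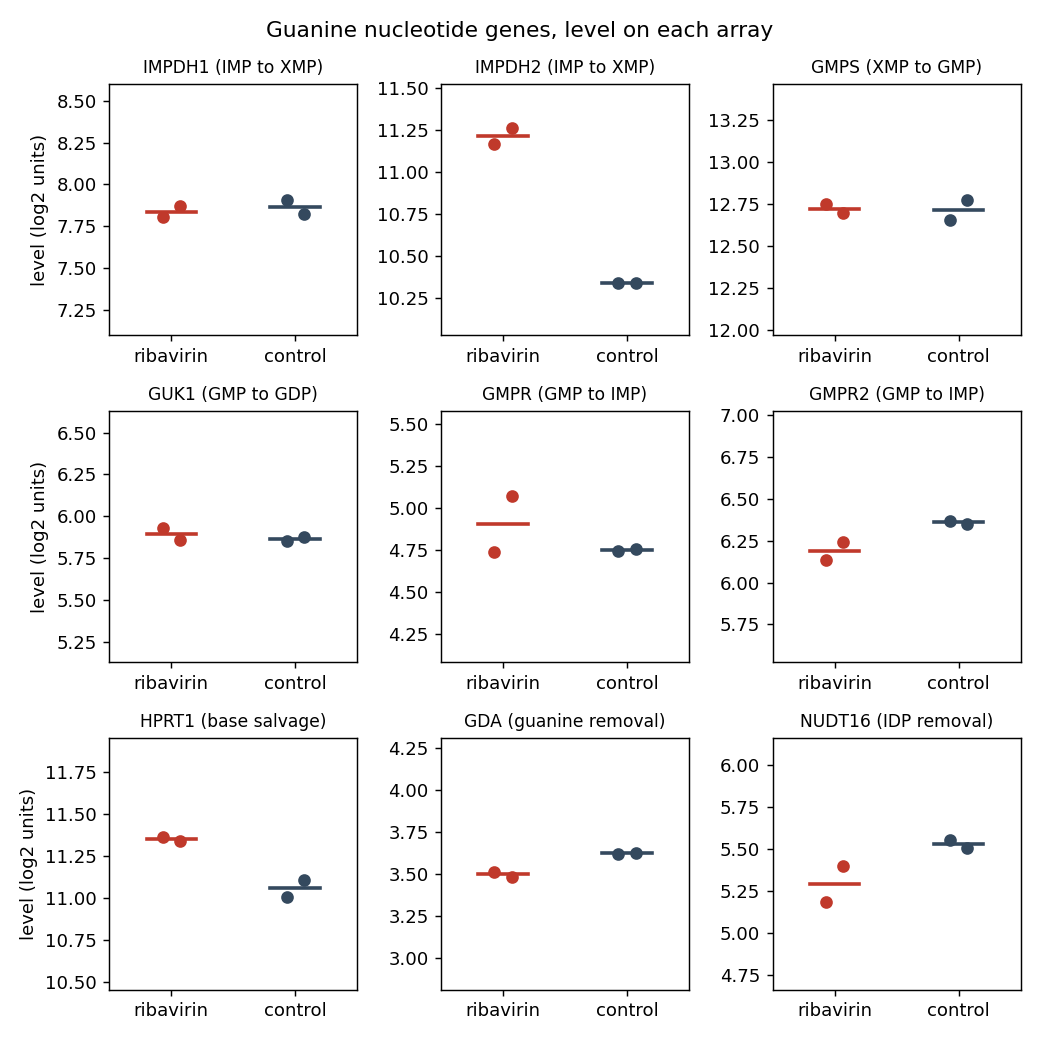
Level of each guanine nucleotide gene (y axis, log2 units, the same span of 1.5 in each panel) on the 2 ribavirin arrays (left) and the 2 control arrays (right), with bars at the group means. IMPDH2 has the widest gap between groups (11.17 and 11.26 against 10.34 and 10.34), HPRT1 a smaller one, and the groups of IMPDH1, GMPS, GUK1 and GMPR overlap.

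After the IMPDH step, GMPS and GUK1 did not pass, and their groups overlapped. GMPS (TC03000851.hg.1), the amidotransferase that makes GMP from XMP, stood at 12.75 and 12.70 with ribavirin, against 12.65 and 12.78 in control. The ribavirin arrays lay between the controls, and the change was 0.0064 (SE 0.08, limma adjusted p = 0.968; 95% interval -0.20 to 0.21). GUK1 (TC01001885.hg.1), the kinase that makes GDP from GMP and also acts on several nucleoside drugs, stood at 5.93 and 5.86 with ribavirin, against 5.85 and 5.88 in control. Here too a ribavirin array lay between the controls, with a change of 0.030 (SE 0.07, limma adjusted p = 0.820; 95% interval -0.15 to 0.21). After quantile normalization both turned sign, to -0.069 for GMPS and -0.046 for GUK1, and did not pass.

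The GMP reductases, which return GMP to IMP, did not pass. GMPR2 (TC14000165.hg.1) stood at 6.13 and 6.24 with ribavirin, against 6.37 and 6.35 in control. Both ribavirin arrays were below both controls, by a mean difference of -0.17 (SE 0.08, limma adjusted p = 0.220; 95% interval -0.36 to 0.025). The difference was -0.27 after quantile normalization (adjusted p = 0.0906) and -0.10 with arrays centred on their median (adjusted p = 0.506), and did not pass in either. GMPR (TC06000110.hg.1) stood at 4.74 and 5.07 with ribavirin, against 4.75 and 4.76 in control. Ribavirin replicate 2 alone was high, and the change of 0.15 (SE 0.12, limma adjusted p = 0.462) was -0.012 without that array and 0.32 without ribavirin replicate 1. The GMPR mean (4.91 with ribavirin, 4.75 in control) did not exceed that of the brightest of 23 background probe sets in either group. The means of those sets ran from 2.09 to 4.95 with ribavirin and from 2.13 to 5.20 in control. GMPR minus GMPR2 within an array was -1.39 and -1.17 with ribavirin, against -1.62 and -1.59 in control, a shift of 0.32 with the smallest two-sided exact permutation p that the design allows (0.333). As GMPR is in the background range, this shift is given as a value only, and it was 0.21 without ribavirin replicate 2.

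HPRT1, the transferase that salvages hypoxanthine to IMP and guanine to GMP, had the second largest difference upward. Its main transcript cluster (TC0X000636.hg.1) stood at 11.36 and 11.34 with ribavirin, against 11.01 and 11.11 in control. The groups did not overlap. The difference of 0.29 (SE 0.08, 1.22-fold with a 95% interval of 1.07 to 1.40) missed the threshold (limma adjusted p = 0.0622). It passed with arrays centred on their median (0.36, adjusted p = 0.0308) and with genes below the median left out (0.29, adjusted p = 0.0291). The threshold was missed after quantile normalization (0.18, adjusted p = 0.209), with clusters averaged (0.22, adjusted p = 0.113) and with all clusters tested (0.29, adjusted p = 0.199). With 1 array left out the difference ran from 0.24 to 0.34. A separate HPRT1 cluster annotated as a noncoding transcript (TC0X001874.hg.1) lay in the background range, at 3.84 and 3.92 with ribavirin against 3.73 and 3.76 in control.

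The members that clear guanine or inosine compounds were dim. GDA (TC09000330.hg.1), the deaminase that turns guanine into xanthine, stood at 3.51 and 3.49 with ribavirin, against 3.62 and 3.62 in control, all within the background range. Its difference was -0.12 (SE 0.07, limma adjusted p = 0.301), and levels in that range can compress a change. NUDT16, a hydrolase that removes inosine diphosphate, was read by rule from a cluster annotated as a noncoding transcript (TC03002549.hg.1), at 5.18 and 5.40 with ribavirin against 5.56 and 5.51 in control. Both ribavirin arrays were lower there (difference -0.24, SE 0.10, limma adjusted p = 0.175), and the difference was -0.13 without ribavirin replicate 1. The RefSeq messenger cluster of the gene (TC03000710.hg.1) stood at 4.52 and 4.63 with ribavirin, against 4.68 and 4.39 in control. In that cluster the groups overlapped within the background range and the difference had the other sign (0.041, adjusted p = 0.852 when it stood for the gene).

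**Figure D3:**
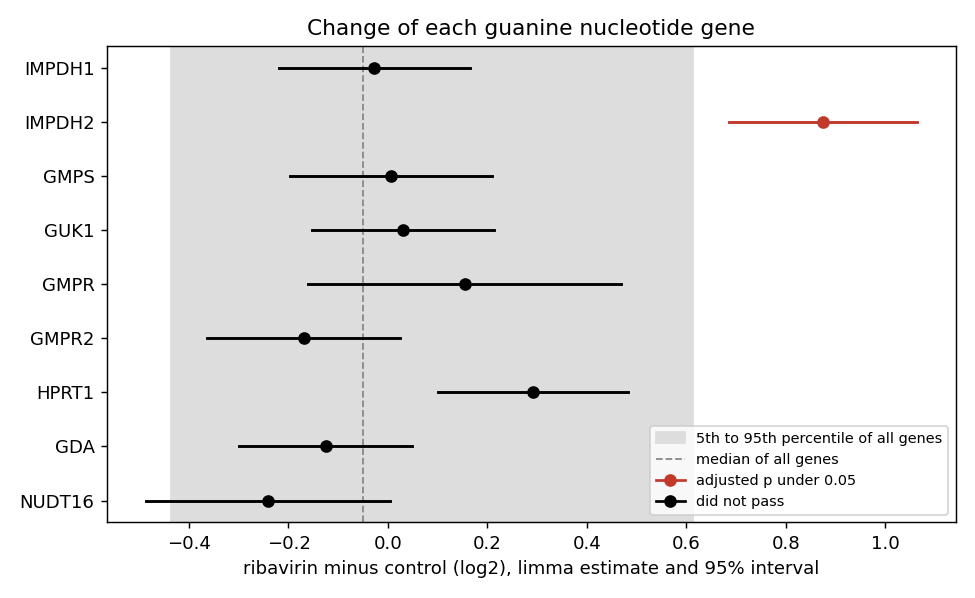
Change of each guanine nucleotide gene (x axis, ribavirin minus control, log2) as the limma estimate (point) with its 95% interval (line), beside the span from the 5th to the 95th percentile of all 25847 genes (grey) and their median (dashed). IMPDH2 is the only member past the threshold and lies above the grey span, which ends at 0.61, and the interval of HPRT1 (0.10 to 0.48) lies above 0 although its adjusted p missed the threshold.

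Around the guanine branch, 44 other genes of purine metabolism and linked nucleotide steps, in 5 lists, were measured. Of these 8 rose, 9 fell and 27 did not pass, with a median change of -0.046, beside 9.34% of all genes that rose and 5.88% that fell (21.9% and 11% above the background range). With arrays centred on their median 8 rose and 4 fell, and after quantile normalization 6 rose and 12 fell. With 1 array left out, fewer of the 44 passed, and fewer over all genes as well. Those counts are not read as a result about these genes, as such a fit leaves 1 array in a group.

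Of the 8 genes that supply IMP, 2 rose and 2 fell. Beside this, 9.34% of all genes rose and 5.88% fell (21.9% and 11% above the background range). PPAT, the amidotransferase that commits ribose to de novo purine synthesis, stood at 8.85 and 8.79 with ribavirin, against 8.08 and 8.17 in control (change 0.70, SE 0.08, limma adjusted p = 0.00658). PFAS, a middle step of the same route, stood at 10.55 and 10.74 with ribavirin, against 11.52 and 11.37 in control (change -0.80, SE 0.10, limma adjusted p = 0.00936). These steps of one route thus moved in opposite directions. PRPS2, which makes the activated ribose, rose by 0.54, a call that ended with quantile normalization, and ADSL, which acts in the IMP route and in the adenine branch, fell by 0.43. PRPS1, GART, PAICS and ATIC did not pass, with changes from -0.079 to 0.15.

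The adenine branch and adenine salvage gave 1 rise and 4 falls among 11 genes. The shares over all genes were 9.34% for rises and 5.88% for falls (21.9% and 11% above the background range). APRT, which salvages adenine as HPRT1 salvages hypoxanthine and guanine, stood at 10.86 and 10.78 with ribavirin, against 10.08 and 9.85 in control (change 0.86, SE 0.10, limma adjusted p = 0.00780). ADA, which deaminates adenosine to inosine and so feeds hypoxanthine to HPRT1, stood at 5.84 and 5.74 with ribavirin, against 7.26 and 7.14 in control (change -1.41, SE 0.08, limma adjusted p = 0.00237). ADA had the largest fall among the 44 genes. The adenylate kinase family gene AK4 (-0.31) and the AMP deaminase AMPD3 (-0.34) also fell, but both calls ended with arrays centred on their median. ADK, the kinase that first phosphorylates ribavirin, differed by -0.25 and did not pass (limma adjusted p = 0.0801), although it passed after quantile normalization and with genes below the median left out. ADSS, which opens the adenine branch from IMP as IMPDH opens the guanine branch, differed by 0.099 and did not pass.

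The list for the use of guanosine di- and triphosphate, not all of whose genes use them, gave 4 rises and 0 falls among 12. Over all genes 9.34% rose and 5.88% fell, and above the background range 21.9% rose and 11% fell. GCH1, which draws GTP into tetrahydrobiopterin synthesis, stood at 8.70 and 8.97 with ribavirin, against 7.33 and 7.52 in control (change 1.41, SE 0.12, limma adjusted p = 0.00415). RRM2, the small subunit of ribonucleotide reductase, stood at 12.50 and 12.43 with ribavirin, against 11.66 and 11.66 in control (change 0.81, SE 0.07, limma adjusted p = 0.00434). The catalytic subunit RRM1 did not pass (-0.074). The alternative small subunit RRM2B rose by 0.50 and the nucleoside diphosphate kinase family gene NME6 by 0.44, each with a control mean in the background range. After quantile normalization NME1, which makes GTP from GDP, fell as well, and with genes below the median left out the list had 4 rises and 2 falls (NME1 and NME7) among 10.

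Nucleotide breakdown genes gave 1 rise and 2 falls among 10, while 9.34% of all genes rose and 5.88% fell (21.9% and 11% above the background range). NT5C2, the cytosolic nucleotidase that prefers IMP and GMP, fell by 0.31, and NT5C3A, a nucleotidase known mainly for pyrimidine nucleotides, rose by 0.38. NT5E, the surface nucleotidase CD73, fell by 0.79, with both groups in the background range, so this value carries the same limit as that of GDA. PNP, which releases hypoxanthine and guanine from their nucleosides for HPRT1, did not pass (-0.026, limma adjusted p = 0.882). The NT5C2 call ended with arrays centred on their median, and the NT5C3A call with quantile normalization. Of 3 partners of the filaments that IMPDH forms, the CTP synthases CTPS1 (-0.20) and CTPS2 (-0.16) did not pass, although CTPS1 fell after quantile normalization, and ANKRD9, which binds IMPDH2, fell by 0.32 within the background range, a call that ended under median centring and under quantile normalization.

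**Figure D4:**
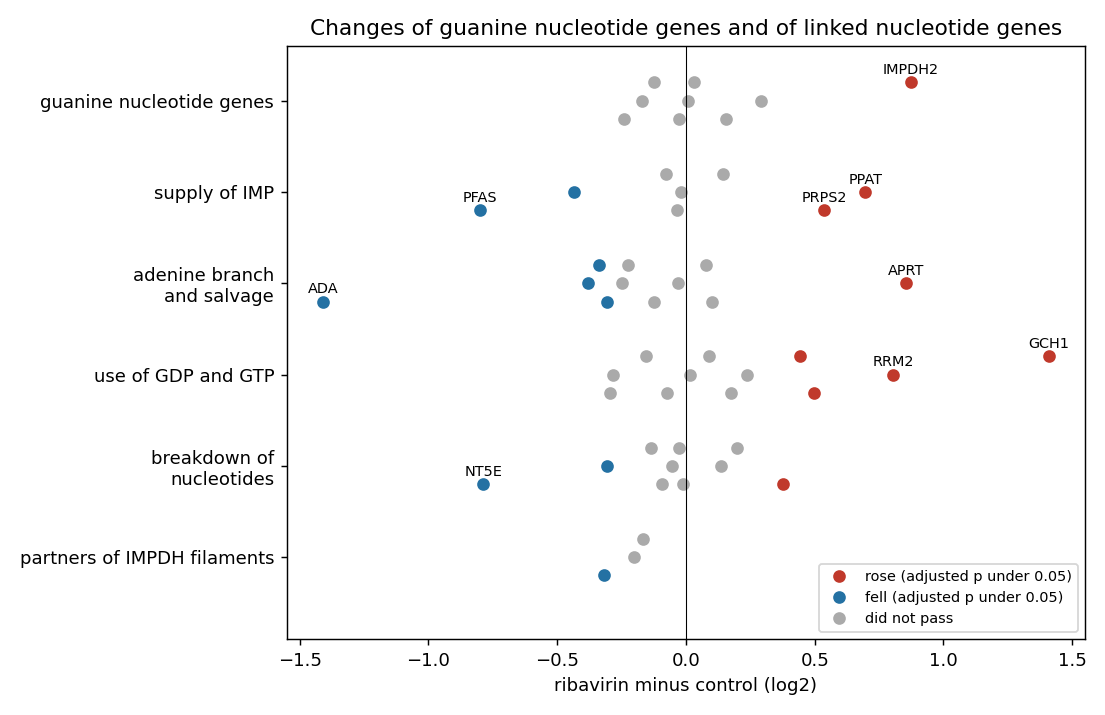
Change with ribavirin against control (x axis, log2) for the 9 guanine nucleotide genes (top row) and the 44 other genes of purine and linked nucleotide metabolism in 5 lists, with a point for each gene, red where it rose, blue where it fell and grey where it did not pass. Names are given for changes above 0.5 in size, and IMPDH2 is the only coloured point in the top row. Over all genes 9.34% rose and 5.88% fell.

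Likeness of pattern was measured as the Euclidean distance between mean-centred levels over the 4 arrays, with the 52 other genes of these lists as candidates. RRM2 lay nearest to IMPDH2 (distance 0.136, own change 0.81), then APRT (0.202, change 0.86) and PPAT (0.222, change 0.70). Nearest to IMPDH1 were GART (0.058), ITPA (0.067) and PRPS1 (0.068), none of which passed the test. With 4 arrays in 2 groups, this measure mainly ranks genes by the size of their change.

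The label of the cells was checked on markers, of which 9 of 10 T-cell genes were measured. CD3D, CD3E, CD3G, CD5, LCK and PTPRC were above the background range in both groups, and CD2 and CD28 within it. CD4 was within it with ribavirin only (mean 4.54, against 5.56 in control). CD3D, CD3G, CD4, CD5 and LCK fell, and the log2 of the summed T-cell signal was 12.82 to 12.83 with ribavirin against 13.54 to 13.58 in control. Epithelial markers also fell (6 of 8, of which KRT18 was within the background range in both groups), as did CD79A and CD79B among 6 B-cell markers. EPCAM (0.42) and MS4A1 (0.41, within the background range) differed upward and did not pass. Of 8 myeloid markers 1, CD68, rose, with its control mean in the background range. Over all genes 9.34% rose and 5.88% fell (21.9% and 11% above the background range). The epithelial log2 sum was 10.06 to 10.09 with ribavirin against 10.85 to 10.87 in control, the B-cell sum 9.91 to 10.08 against 11.21 to 11.37, and the myeloid sum 7.26 to 7.28 against 7.12 to 7.31. The 5 erythroid markers were all in the background range. All 4 arrays were labelled as this 1 line, and whether the B-cell and epithelial signals came from other cells was not tested. The part of these marker shifts in the IMPDH2 result was not tested. In bulk RNA, fewer cells of the line expressing a marker and less of its RNA per cell cannot be told apart. The median level over all genes was 4.20 and 4.21 in the ribavirin arrays, against 4.24 and 4.30 in the control arrays.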

How the data were processed

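Total RNA of Hut78 cells was measured on 4 arrays, 2 with ribavirin and 2 without, grouped by the sample titles. Each deposited value is a log2 summary of a probe set, which the authors made with SST-RMA, per the table's own name. The submitters' processing notes name Affymetrix Expression Console and RMA, with neither version nor filter given. How far this processing stretched or compressed changes was not tested, and levels near the background can compress a change. A second deposited table held the same values (largest difference 0 over 70523 probe sets).

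Of 67528 transcript clusters, 33444 had 1 symbol. The cluster with the highest mean stood for each of 25847 genes, with no filter on dim genes. Ribavirin was compared with control in limma 3.58.1 (R 4.3.3; eBayes after lmFit, without covariates, 2 residual and 3.19 prior degrees of freedom), two-sided, with Benjamini-Hochberg adjustment over all genes and a threshold of 0.05. Isozyme pairs were tested by exact permutation. A gene was in the background range when its group mean did not exceed that of the highest background probe set. The fit was tested on simulated data. Arrays have no read depth, and their number limits the precision.

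The members and lists were chosen with earlier results of these data known. Named were all members and their clusters, the genes of 5 lists of purine and linked nucleotide genes that passed, and the 3 nearest in pattern to IMPDH1 and IMPDH2; RRM1, ADK, ADSS, PNP, NME1, NME7, CTPS1, CTPS2 and the IMP supply genes that did not pass were named after their values were seen. Some results that this rule names are not reported here. The alternatives tried were robust moderation, an intensity trend, quantile normalization, median centring, leaving out dim genes, averaging clusters, a block for the array number, adjusted p under 0.1 or 0.01, and leaving out each array. Testing all clusters and the RefSeq cluster of NUDT16 were added after seeing the data.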

Additional observations from a re-analysis of the deposited data

How the results depend on the processing

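IMPDH2 kept its direction under every alternative run, and lost its call only without a control array. With all 4 arrays its change ran from 0.76 to 0.94 (limma adjusted p 0.00153 to 0.0305), and with 1 array left out from 0.83 to 0.92. For members that did not pass, the sign turned for GMPS (-0.069) and GUK1 (-0.046) with quantile normalization, for IMPDH1 with centring on the median (0.038) and for NUDT16 with its RefSeq cluster (0.041). With 1 array left out, IMPDH1 ran from -0.068 to 0.014, GMPS from -0.055 to 0.068, GUK1 from -0.0063 to 0.066 and GMPR from -0.012 to 0.32. The within-array differences with quantile normalization were -0.96 (IMPDH1 minus IMPDH2) and 0.44 (GMPR minus GMPR2). The members that rose numbered 2 with centring, with dim genes left out (1 of the 9, GDA, was then not tested) and at an adjusted p under 0.1, the second being HPRT1 each time, and 0 to 1 with an array left out.

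Over all genes, 3934 passed. At a threshold of 0.1 the falls numbered 2449, and at 0.01 there were 1314 calls (894 up, 420 down). With all transcript clusters tested there were 1893 (1199 up, 694 down). The standard errors and the number of tests both changed in that fit (IMPDH2 SE 0.091 against 0.074), and the cause was not tested. With an array left out the calls ran from 26 to 2001, the rises from 22 to 1430 and the falls from 4 to 571. The array number was not taken as a pairing: same-numbered arrays deviated from their group means with a correlation of 0.051 across genes, and no label ties them. With it as a replicate block 3340 genes passed, IMPDH2 among them (adjusted p = 0.0106), and HPRT1 did not (adjusted p = 0.0975).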
